A study of Felis catus with 2 samples.

Results

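The genes described here encode voltage-gated, potassium and mechanosensitive channels with their auxiliary subunits, and they were taken from the deposited table by symbol alone. A gene was a member when its row carried a single name beginning with KCN and a further letter, with SCN and a digit, with CACNA, CACNB or CACNG, with TRPA, TRPC, TRPM or TRPV and a digit, or with PIEZO. A further gene with such a symbol is not analysed here. These criteria found 138 genes among 32065 loci, 21462 of them with a gene symbol or Ensembl identifier. The criteria use symbols and no measured value, although they were set with earlier results of these data known. A pair of members are not channel subunits: TRPC4AP is an adaptor protein named after a channel it binds, and KCNRG is a regulator of potassium channel assembly.

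The study sequenced polyadenylated RNA from the eyes of 2 cats, both 2 months old. The dissected piece held the drainage angle, where iris and cornea meet and the trabecular meshwork lies, the ciliary body and some sclera. The affected cat had primary congenital glaucoma (PCG) and came from a colony founded by Siamese cats, in which the disease is recessive and linked to a 4-bp insertion in LTBP2. The control was a healthy cat of the same age that was not related to it. The breed of the 2 sequenced cats is not given in the sources used here. Each group is therefore a single animal and a single library, no difference can be tested, and all values below describe these 2 libraries.

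Ion channels set the voltage across cell membranes and carry the fluxes of potassium, sodium and calcium on which secretion, contraction and signalling depend. Potassium channels hold the membrane negative and return it there after depolarization, voltage-gated sodium and calcium channels open on depolarization, and TRP and PIEZO channels respond to chemical, osmotic or mechanical stimuli. In the anterior eye, potassium channels and calcium channels act in the ciliary muscle and in the fluid transport of the ciliary epithelium, and PIEZO and TRPV4 channels have been studied as pressure sensors of the outflow pathway. In the retina, photoreceptors hold their voltage with a dedicated potassium channel and release glutamate through an L-type calcium channel. Most channels are assemblies, in which pore-forming alpha subunits are joined by beta, gamma or other auxiliary subunits.

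The values are FPKM, sequenced fragments scaled for exon length and for the size of the library, so that levels can be compared between genes as well as between libraries. Over all loci they sum to 649113 (normal) and 672893 (affected). Wherever a pair of values is given below, the normal library comes first and the affected library second. From the steps between low values, each fragment of a transcript with an effective length of 1 kilobase added 0.0140 FPKM (normal) or 0.0148 FPKM (affected), so that a gene at 1 FPKM with that length rests on 71.2 or 67.5 fragments. Where a range follows a fold below, it is the 95% interval from counting error alone for an effective length of 1 kilobase. It would be narrower for a longer transcript, and it does not include the variation between cats or between dissections. Log2 ratios are log2 of (affected + 1) over (normal + 1), and a gene was called higher or lower when this ratio reached 2-fold, among genes that reached 1 FPKM in either library.

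Other cell types of the eye stood at unlike levels in the 2 libraries, and their part in the channel values below was not tested. MYOC, which encodes the trabecular meshwork protein myocilin and was used to check the labelled tissue, had 149.7 FPKM in the normal library and 301.5 FPKM in the affected one. Of 11 photoreceptor markers 9 were in the table, 8 of them were called higher and none lower, and their summed level was 337.4 FPKM in the normal library and 1597 FPKM in the affected one, a 4.73-fold difference. The 9 lens markers in the table summed to 24886 and 40673 FPKM, with 6 called higher and a median log2 ratio of 1.37. Inner retina neurons and glia summed to 632.9 and 2348 FPKM, mostly GLUL, with 2 of 7 called higher and 1 lower. Retinal pigment and ciliary epithelium, the latter part of the labelled tissue, summed to 1919 and 4251 FPKM, with 2 of 8 called higher (COL9A1 and OPTC) and 2 lower (RPE65 and CA2). In the other direction, all 8 markers of corneal and conjunctival epithelium were called lower, with sums of 590.0 and 25.5 FPKM, and 5 of 7 vascular endothelial markers were called lower, with sums of 142.6 and 44.6 FPKM. Smooth muscle markers summed to 1344 and 1155 FPKM, with 1 of 7 called lower, and Schwann cell and nerve markers to 220.7 and 171.8 FPKM, with 1 of 10 called higher and 3 lower. No marker of these lists was at 0 in either library. In bulk tissue, fewer cells of a type and less RNA per cell cannot be told apart.

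Most channel genes were expressed at low levels. Of the 138 members 83 reached 1 FPKM in at least 1 library, 55 of them in both, 17 only in the normal and 11 only in the affected library. The remaining 55 members stayed below 1 FPKM in both. The median of the 83 members was 3.49 and 2.97 FPKM, against 8.46 and 8.37 FPKM over all 16676 loci that passed the same minimum. Together the 138 members made up 0.0904% of all FPKM in the normal library and 0.132% in the affected one. Just above the minimum, KCNK15 had 0.273 and 1.03 FPKM and was retained.

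**Figure D1:**
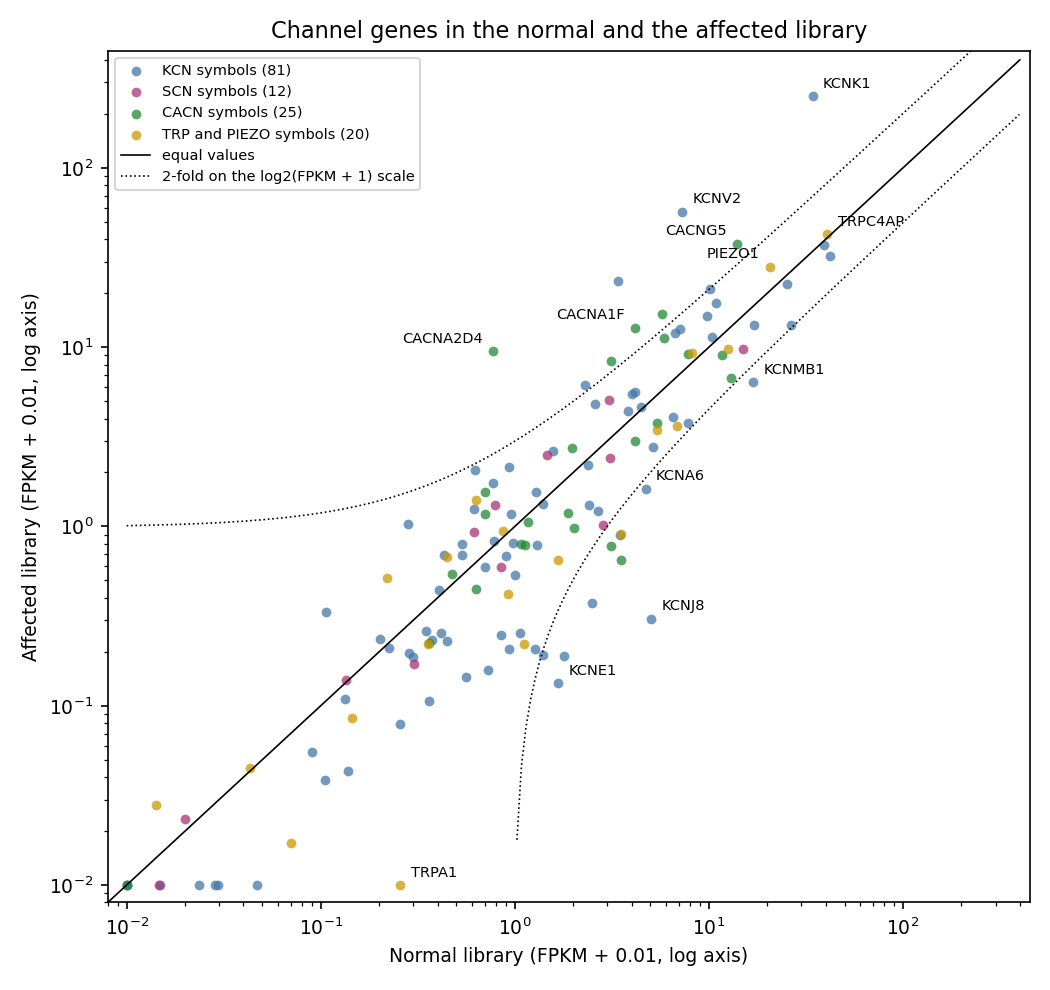
FPKM of all 138 channel genes in the normal library (horizontal, log axis) and the affected library (vertical, log axis), after adding 0.01 so that values of 0 can be drawn, with 1 point per gene coloured by the start of its symbol. The solid line marks equal values and the dotted lines 2-fold on the log2(FPKM + 1) scale; KCNK1 lies highest at 250.8 FPKM in the affected library, and KCNJ8 lies farthest below the lower dotted line.

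Of the 83 members 9 (10.8%) were called higher, against 8.14% of all loci past the minimum, and 11 (13.3%) were called lower, against 8.75%. The other 63 members lay within 2-fold. The median log2 ratio of the 83 members was −0.06, beside −0.0047 over all loci, and 40 members had a higher and 43 a lower value in the affected library. The shares of members called lay a little above the background share in both directions. Of the 11 members called lower, 9 passed the minimum through the normal library alone, and of the 9 called higher CACNA2D4 passed it through the affected library alone. Such genes could only be called in the direction in which they were found, so these counts are a description. The members called higher stood mostly at higher mean levels than those called lower. Among the 32 members with a mean of at least 5 FPKM, 8 were called higher, against 7.62% of all loci past that mean. In the same group 1 was called lower, against 6.46%. This mean includes the library in which a gene is high. Among those called higher, CACNA1F, CACNA1D and CACNA2D4 had 4.16, 3.11 and 0.762 FPKM in the normal library. They reached the mean through their affected values, so these counts too are a description. Adding 0.1 in place of 1 FPKM gave 16 higher members, against 11.9% of all loci, and 18 lower members, against 13.0%.

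**Figure D2:**
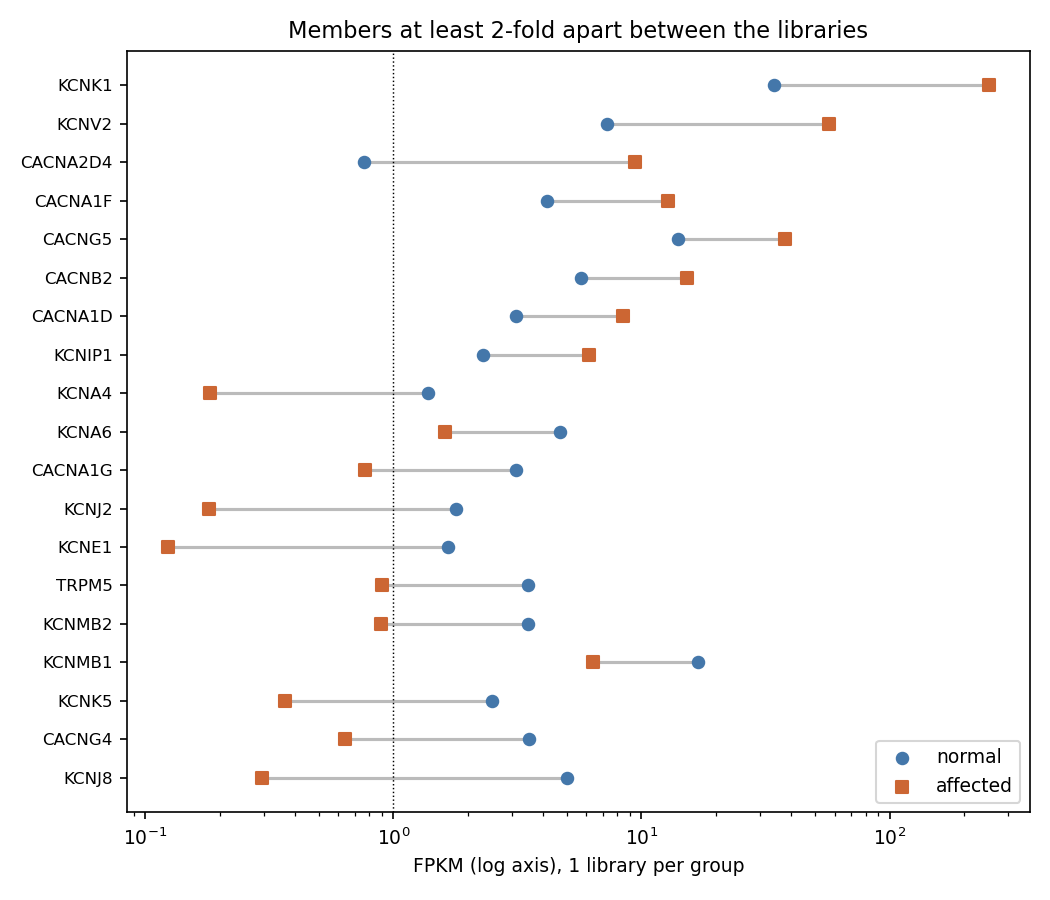
FPKM in the normal (circles) and affected (squares) library on a log axis for 19 of the 20 channel genes at least 2-fold apart, ordered by log2 ratio, with 1 library per group and a dotted line at 1 FPKM. The upper genes run from KCNIP1, at 2.30 and 6.15 FPKM, to KCNK1, at 34.2 and 250.8 FPKM, and most of the 11 lower genes fall below 1 FPKM in the affected library.

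The pore-forming subunits of voltage-gated potassium channels were the largest class, with 35 members, of which 17 passed the minimum, 2 were called higher and 2 lower. Their median log2 ratio was 0.16. Among the members called higher was KCNV2. It encodes a subunit that is silent on its own and modifies the potassium channel of the photoreceptor inner segment, and mutations of KCNV2 in humans cause a cone dystrophy with an enlarged rod response. KCNV2 had 7.26 FPKM in the normal library and 57.0 FPKM in the affected one, 7.85-fold higher (7.17 to 8.61). Its locus lies on chromosome D4 of felCat5 from 8570661 to 8583057.

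The voltage-gated potassium channel genes called lower were the Shaker-type channels KCNA6, with 4.71 and 1.61 FPKM, and KCNA4, with 1.38 and 0.182 FPKM, which was the member just inside the 2-fold limit on the lower side. Their relatives KCNA1 and KCNA2 had 1.27 and 1.54 FPKM, and 0.944 and 1.17 FPKM. KCNH3, a relative of the cardiac hERG channel, had 7.07 and 12.55 FPKM, and KCNH2, the hERG channel itself, 6.50 and 4.07 FPKM. The 18 members below the minimum included KCNS1, KCNS2, KCNC1, KCND1 and KCND2.

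Auxiliary subunits of voltage-gated and of large-conductance calcium-activated (BK) potassium channels numbered 15, and 14 of them passed the minimum. Of these 1 was called higher and 3 were called lower, with a median log2 ratio of −0.35. KCNMB4, the BK beta subunit known mainly from neurons, was the highest of all members in the normal library, at 42.1 FPKM against 32.4 FPKM in the affected library. KCNMB1, the beta subunit of smooth muscle, was 2.64-fold lower in the affected library (2.36 to 2.95), with 16.8 and 6.38 FPKM. A second row with the same name and span had 0.630 and 1.36 FPKM and was not used. KCNMB2, a beta subunit that inactivates the channel, was 3.93-fold lower (2.96 to 5.21), with 3.49 and 0.888 FPKM. The pore subunit KCNMA1 had 6.71 and 11.97 FPKM, 1.78-fold higher (1.593 to 1.998), below the limit for a call. The proportion of KCNMB1 to KCNMA1 was therefore 2.51 in the normal library and 0.533 in the affected one, and that of KCNMB4 to KCNMA1 was 6.28 and 2.71. BK channels set the relaxation of vascular and ciliary smooth muscle. The smooth muscle markers were 1.16-fold lower in sum, with a median log2 ratio of −0.41, but they differed among themselves: TAGLN was 2.52-fold and SMTN 1.88-fold lower, and ACTA2 had 600.0 and 699.4 FPKM.

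KCNE subunits are small single-span proteins that modify voltage-gated potassium channels. KCNE4 had 26.5 FPKM in the normal library and 13.3 FPKM in the affected one, 1.999-fold lower (1.847 to 2.165). Its log2 ratio of −0.95, after adding 1, placed it just outside the limit, nearest to it on the lower side among the members that were not called. KCNE1, the partner of the cardiac and inner ear channel KCNQ1, was called lower with 1.66 and 0.124 FPKM, 13.4-fold (6.64 to 27.0), where the affected value rests on 8.37 fragments per kilobase. KCNE2, its neighbour on chromosome C2, had 1.39 and 1.32 FPKM. Potassium channel-interacting proteins, which bind calcium and partner the A-type channels of the KCND genes, went both ways. KCNIP1 was called higher, with 2.30 and 6.15 FPKM, 2.67-fold (2.23 to 3.20), and was the member nearest to the upper limit from the inside. KCNIP2 lay just outside it with 10.1 and 21.1 FPKM, a log2 ratio of 0.99. KCNIP3 had 9.73 and 14.9 FPKM, whereas KCNIP4 had 7.76 and 3.74 FPKM. The KCND genes themselves were low, KCND3 at 1.29 and 0.778 FPKM and the others below 1 FPKM.

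Among the 6 other calcium- and sodium-activated potassium channel genes, 3 passed the minimum, KCNMA1 among them, and none was called. KCNN2, a small-conductance calcium-activated channel, had 1.57 and 2.62 FPKM, and the sodium-activated channel KCNT2 had 2.39 and 1.31 FPKM.

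Inward rectifiers conduct potassium near the resting voltage. Of 14 members 6 passed the minimum, none was called higher and 2 were called lower. KCNJ13, known from the apical membrane of the retinal pigment epithelium, was the highest, with 25.2 and 22.5 FPKM, and KCNJ12 had 10.4 and 11.3 FPKM, so both were nearly level. The locus of KCNJ13 is listed with the same span as GIGYF2, which had 14.1 and 15.0 FPKM. KCNJ8, the pore of the ATP-sensitive potassium channel of vascular smooth muscle and pericytes, had 5.01 and 0.296 FPKM. It was 16.9-fold lower in the affected library (10.8 to 26.5) and had the lowest log2 ratio of all members that passed the minimum, −2.21. It lies on chromosome B4 of felCat5 from 57513374 to 57521093. Its sulfonylurea receptor ABCC9, which is not a member, had 9.71 and 2.36 FPKM, 4.12-fold lower. The counterpart pair of pancreas and neurons stood below 1 FPKM in both libraries, with 0.549 and 0.134 FPKM for KCNJ11 and 0.849 and 0.215 FPKM for ABCC8.

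KCNJ2, the strong inward rectifier of muscle and endothelium, had 1.79 and 0.181 FPKM and was called lower, 9.92-fold (5.51 to 17.9). Vascular endothelial markers were 3.20-fold lower in sum, and relative to them KCNJ8 stood at 35.2 and 6.65 per 1000 marker FPKM, KCNJ2 at 12.6 and 4.05, and ABCC9 at 68.1 and 52.8. Relative to the smooth muscle markers KCNJ8 stood at 3.73 and 0.257 per 1000 marker FPKM, and ABCC9 at 7.23 and 2.04. The part of the endothelial and muscle shares in these values was not tested. KCNJ10, which carries potassium out of retinal glia, had 0.929 and 2.12 FPKM, 2.29-fold (1.71 to 3.06), and was not called. A second row with the name KCNJ10 and the same span had 0.781 and 1.75 FPKM. The glial marker GLUL, which other cells also express, had 346.6 and 1981 FPKM, and RLBP1, another marker of the same glia, 184.7 and 260.8 FPKM, so that the pair differed unequally.

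Channels of the two-pore domain family carry background potassium currents. Of 11 members 6 passed the minimum. KCNK1, a weak inward rectifier of this family, had 34.2 FPKM in the normal library and 250.8 FPKM in the affected one, 7.33-fold higher (7.03 to 7.65). It had the highest log2 ratio of all members, 2.84, ranked 4th of the 138 members in the normal library and 1st in the affected one, and held 5.83% of their sum in the normal library and 28.3% in the affected one. Without KCNK1 the members summed to 552.6 and 636.3 FPKM, with it to 586.7 and 887.1 FPKM, so this single gene made up most of the difference between the sums. Its locus lies on chromosome D2 from 14753898 to 14787875 and overlaps no other row of the table. Photoreceptor markers were 4.73-fold and lens markers 1.63-fold higher in sum. CRYBA1, with 12676 and 14523 FPKM, made up much of the lens sum, while the lens markers BFSP1 and CRYGS were 8.21-fold and 4.23-fold higher. Per 1000 FPKM of the photoreceptor markers KCNK1 stood at 101.4 in the normal library and 157.0 in the affected one, and per 1000 FPKM of the lens markers at 1.37 and 6.17. The part of these cell types in the KCNK1 value was not tested.

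The acid-sensitive channel KCNK3 had 10.9 and 17.5 FPKM, and KCNK7, which gives no current on its own, 4.48 and 4.65 FPKM. KCNK5, a channel of epithelia that opens in alkaline solution, was called lower with 2.50 and 0.364 FPKM, 6.85-fold (4.50 to 10.4). Markers of corneal and conjunctival epithelium were 23.2-fold lower in sum, and whether KCNK5 follows them was not tested. KCNK2, a channel opened by membrane stretch, stayed below 1 FPKM with 0.840 and 0.237 FPKM, 3.54-fold lower (2.04 to 6.14). KCNK17 and KCNK18 were listed at 0 in both libraries.

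**Figure D3:**
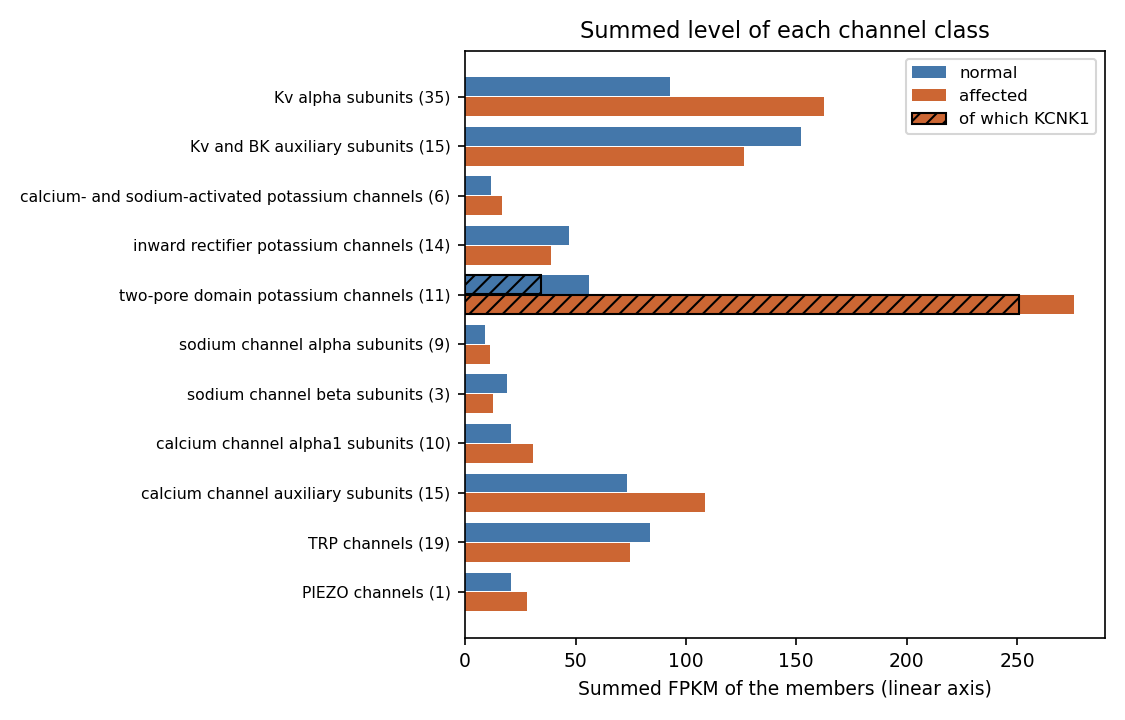
Summed FPKM of each channel class in the normal and affected library on a linear axis that starts at 0, with the number of members in brackets and the part contributed by KCNK1 hatched. The two-pore domain class summed to 56.2 FPKM in the normal library and 275.9 FPKM in the affected one, almost all of the difference being KCNK1, and the classes of auxiliary potassium channel subunits, inward rectifiers, sodium channel beta subunits and TRP channels had lower sums in the affected library.

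Voltage-gated sodium channels were scarce. Of 9 alpha subunits 4 passed the minimum and none was called in either direction. SCN7A, a channel that senses extracellular sodium and is found in glia, was the highest with 3.06 and 5.07 FPKM. The neuronal channel SCN1A had 1.46 and 2.50 FPKM, and SCN9A, the channel of pain fibres, 0.779 and 1.30 FPKM. These 3 genes lie next to each other on chromosome C1, with 45411 bases between SCN1A and SCN9A and 36049 between SCN9A and SCN7A, and their log2 ratios were 0.51, 0.37 and 0.58. SCN10A and SCN11A, known from sensory neurons, were at most 0.0133 FPKM in either library. Of the beta subunits SCN2B stood highest, at 14.9 and 9.80 FPKM, with SCN4B at 3.07 and 2.39 FPKM and SCN3B at 0.835 and 0.587 FPKM.

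Of the voltage-gated calcium channel genes past the minimum, 2 of 9 alpha1 subunits and 3 of 12 auxiliary subunits were called higher, against 8.14% of all loci. In each of these classes 1 was called lower, against 8.75%. CACNA2D4, called higher, passed the minimum through the affected library alone. CACNA1G and CACNG4, called lower, passed it through the normal library alone. CACNA1F encodes the L-type channel of photoreceptor and bipolar cell synapses, and CACNA2D4 and CACNB2 encode the alpha2delta and beta subunits that accompany it. CACNA1F had 4.16 and 12.8 FPKM, 3.08-fold higher (2.70 to 3.51). CACNA2D4 had 0.762 and 9.46 FPKM, 12.4-fold higher (9.40 to 16.4), with a log2 ratio of 2.57. CACNB2 had 5.70 and 15.3 FPKM, 2.68-fold higher (2.39 to 3.01). The 3 subunits of this channel were thus all called higher, but not in step, since CACNA2D4 stood at 0.183 per CACNA1F in the normal library and 0.737 in the affected one, and CACNB2 at 1.37 and 1.19.

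CACNA2D4 and CACNB2 each share their span with a row that joins several names, and those rows differed little, at 1.60 and 1.75 FPKM for CACNA2D4 with LRTM2 and at 5.94 and 5.68 FPKM for CACNB2 with an Ensembl identifier. How fragments were divided between such rows is not given in the sources used here. CACNA1D, the L-type channel of hair cells, had 3.11 and 8.39 FPKM, 2.70-fold higher (2.31 to 3.15), and shares its span with CHDH, which had 4.44 and 3.73 FPKM. CACNA1C, the L-type channel of smooth muscle and heart, had 1.16 and 1.04 FPKM, a fold of 0.900 (0.655 to 1.24), which is within counting error at that length. Of the T-type channels, which open at low voltage, CACNA1G was called lower with 3.12 and 0.770 FPKM, 4.05-fold (2.996 to 5.480). CACNA1H, with 4.14 and 2.97 FPKM, and CACNA1I, with 1.07 and 0.786 FPKM, were not called. CACNA1G and CACNA1I passed the minimum through the normal library alone, so their values could only be lower.

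CACNG genes encode gamma subunits, several of which carry AMPA-type glutamate receptors to the synapse. CACNG5 was listed at 13.998 and 37.85 FPKM, 2.70-fold higher (2.51 to 2.91), and ranked 11th in the normal library and 4th in the affected one. CACNG4, which lies 67180 bases away on chromosome E1, went the opposite way, with 3.52 and 0.636 FPKM, 5.53-fold lower (3.999 to 7.640). CACNG1, the gamma subunit of skeletal muscle and the next gene along, was listed at 0 in both libraries, and 6 of the 7 skeletal muscle markers in the table were below 1 FPKM. CACNA2D1, the alpha2delta subunit with the highest mean level, had 11.6 and 9.07 FPKM.

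**Figure D4:**
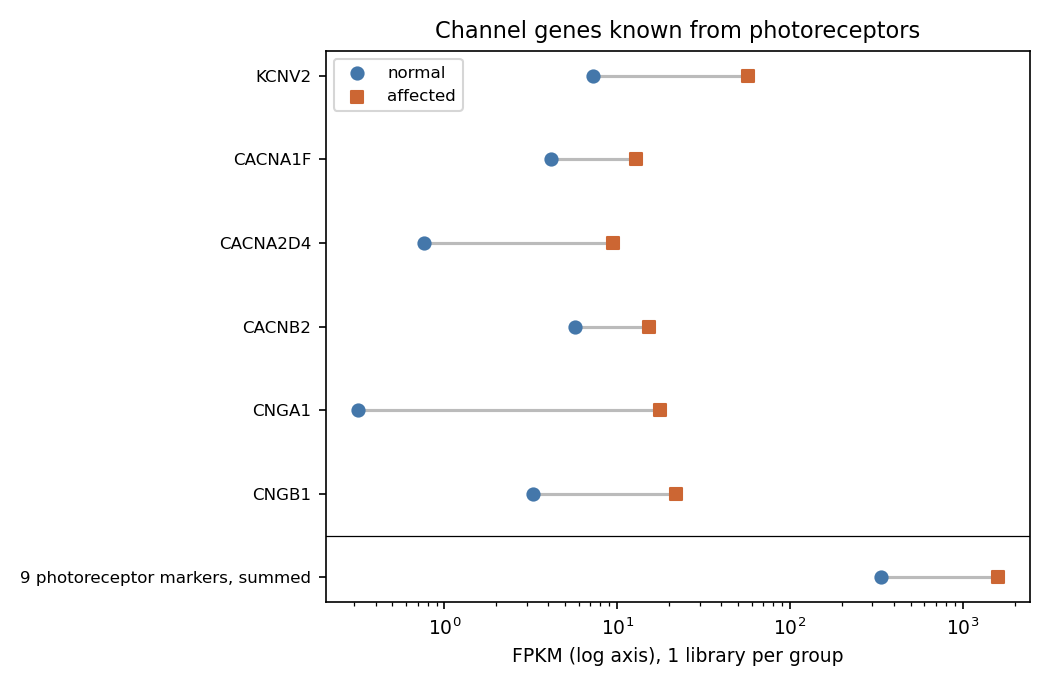
FPKM in the normal (circles) and affected (squares) library on a log axis for 6 channel genes known from photoreceptors, of which CNGA1 and CNGB1 are not members, above the sum of 9 photoreceptor markers. All 6 genes drawn were higher in the affected library, from 2.68-fold for CACNB2 to 56.3-fold for CNGA1, and the marker sum was 4.73-fold higher. The related genes CNGA3 and CNGB3 are not drawn and were not higher. They had 1.39 and 0.411 FPKM, and 0.471 and 0.421 FPKM.

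Set against the photoreceptor markers, which differed 4.73-fold in sum, the photoreceptor channel genes fell on both sides. The single markers differed among themselves, from 1.09-fold for GNAT2 to 32.8-fold for GUCA1A. KCNV2, CACNA2D4, CACNA1F and CACNB2 lay within that range, and CNGA1, at 56.3-fold, lay beyond it. Per 1000 FPKM of those markers KCNV2 stood at 21.5 in the normal library and 35.7 in the affected one. CACNA2D4 stood at 2.26 and 5.92, whereas CACNA1F stood at 12.3 and 8.03 and CACNB2 at 16.9 and 9.57. CACNB2 is also expressed outside the retina. Whether the affected tissue held more retina, or its photoreceptors more channel RNA, was not tested.

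TRP channels are mostly calcium-permeable cation channels opened by ligands, lipids, heat or osmotic change. Of 19 members with such a symbol 9 passed the minimum, none was called higher and 1 was called lower, and the median log2 ratio of −0.52 was the lowest of the 11 classes. TRPC4AP, the adaptor protein, had 40.8 and 42.7 FPKM and was the highest of the 19. Of the channels proper, TRPM7, a channel fused to a kinase that carries magnesium, had 12.6 and 9.73 FPKM, and TRPC1 had 8.18 and 9.32 FPKM. TRPM4 and TRPM5 are relatives that calcium inside the cell opens to sodium. TRPM5, known from taste and other chemosensory cells, was called lower with 3.50 and 0.900 FPKM, 3.89-fold (2.94 to 5.15), and TRPM4 had 5.37 and 3.45 FPKM, 1.55-fold lower (1.32 to 1.83).

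TRPV4, which responds to swelling and stretch, had 1.66 and 0.639 FPKM, 2.59-fold lower (1.83 to 3.67), with a log2 ratio of −0.70 that did not reach the limit. TRPV2 had 6.80 and 3.64 FPKM, and the epithelial calcium channel TRPV6 1.10 and 0.211 FPKM. The 3 TRPV genes past the minimum had lower values without being called. TRPV4 and TRPV6 passed the minimum through the normal library alone, so their values could only be lower. With 0.1 in place of 1 FPKM added, TRPV4 and TRPV6 passed 2-fold, at log2 ratios of −1.25 and −1.95. TRPA1, the irritant receptor of sensory nerves, had 0.247 FPKM in the normal library and was listed at 0 in the affected one. PIEZO1, a channel opened directly by membrane tension, had 20.6 and 28.1 FPKM, 1.36-fold higher (1.27 to 1.46). It ranked 7th of all members in both libraries, and its locus lies on chromosome E2 from 62818431 to 62833643. PIEZO2 is found in the table only on a row that joins it to an Ensembl identifier, with 2.28 and 0.748 FPKM, and was not a member. The mechanosensitive members thus differed in level, with PIEZO1 at more than 10 times the level of TRPV4 or KCNK2.

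**Figure D5:**
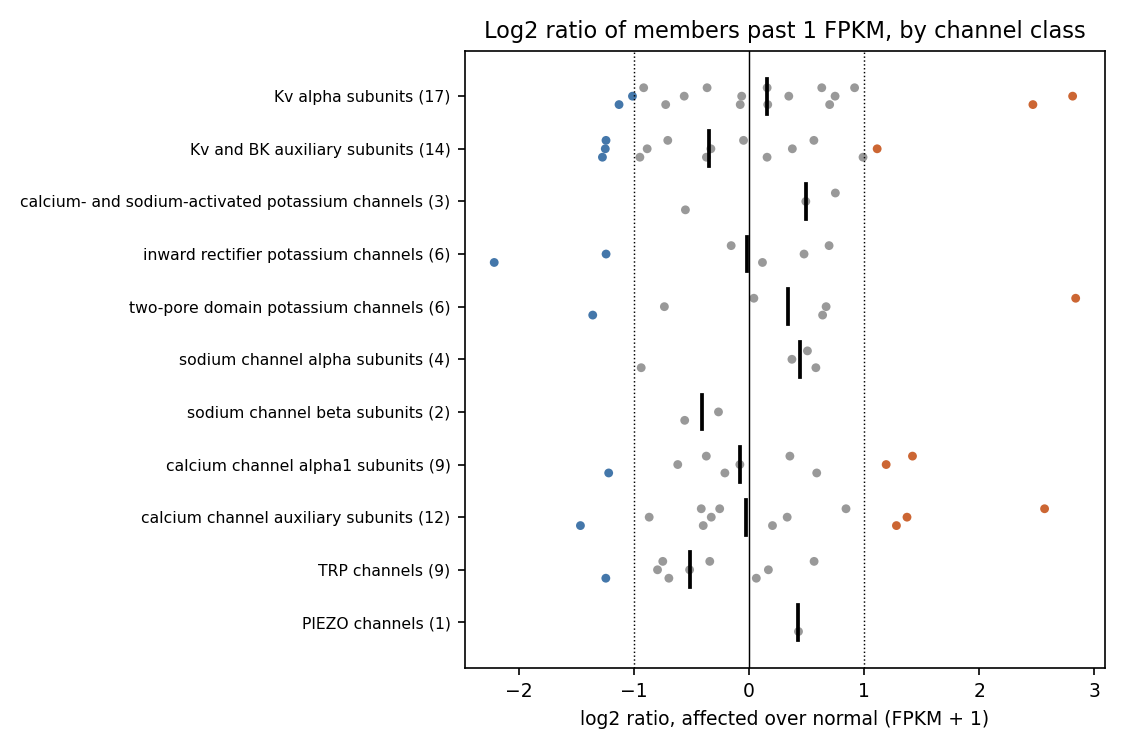
Log2 ratio, affected over normal after adding 1 FPKM, of the 83 channel genes past the minimum, by class, with the number of genes in brackets, 1 point per gene and a black bar at the class median. Dotted lines mark 2-fold, genes called higher are drawn in orange and those called lower in blue, and calls on both sides of 0 are found in 5 of the 11 classes.

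Genes that work with these channels or are related to them but carry other symbols were taken from a list of 59, of which 54 were in the table and 41 passed the minimum. Of these 7 were called higher, against 8.14% of all loci, and 1, ABCC9, was called lower, against 8.75%, with a median log2 ratio of 0.11. The genes called higher included the subunits of the rod channel opened by cyclic GMP, CNGA1 with 0.314 and 17.7 FPKM and CNGB1 with 3.27 and 22.03 FPKM. Their relative CNGA3, with 1.39 and 0.411 FPKM, was not called, and CNGB3 stayed below 1 FPKM with 0.471 and 0.421 FPKM. HCN2, a channel opened by hyperpolarization, had 1.94 and 5.53 FPKM. UNC80, a subunit of the sodium leak channel, had 1.17 and 8.10 FPKM, whereas the pore of that channel, NALCN, had 3.07 and 2.71 FPKM. HVCN1, a proton channel, had 9.84 and 28.5 FPKM, and ASIC4, of the acid-sensing channel family, 4.04 and 11.4 FPKM. The 5 genes of the list with the highest mean level were all within 2-fold, ORAI3 with 44.3 and 28.2 FPKM, FGF13 with 31.0 and 32.5 FPKM, PKD2 with 30.8 and 31.1 FPKM, ANK2 with 31.4 and 29.1 FPKM and TMEM175 with 24.0 and 30.7 FPKM.

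Many channel genes lie in clusters. Of 20 pairs of members next to each other within 100000 bases, 7 had both genes past the minimum, and in 4 of these both log2 ratios had the same sign and in 3 the opposite sign. In 2 of the opposite pairs 1 gene was called higher and the other lower, namely CACNG4 and CACNG5, described above, and KCNIP1 and KCNMB1 on chromosome A1, which are 72383 bases apart. Rows overlap for 27 members, 22 of them past the minimum, and 4 of the called members are among these, CACNA2D4, CACNB2, CACNA1D and KCNMB1.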

How the data were processed

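Polyadenylated RNA was prepared with a TruSeq v2 kit, which does not mark strand. The authors aligned the reads with TopHat 2.0.9 to felCat5 with Ensembl gene predictions and computed the deposited FPKM values per locus with Cufflinks 2.1.1. The treatment of multi-mapped reads and the scaling between libraries are not given in the sources used here. Near-identical paralogs and overlapping genes can share fragments, and without strand, antisense genes cannot be told apart.

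The 2 value columns were matched to the libraries by name. Of rows with a repeated name the one with the higher mean was used, and rows that join several names were not members. Loci that reached 1 FPKM in either library were compared, as log2((affected + 1) / (normal + 1)), and called at 2-fold. Deposited starts count from 0 (the lowest is 0), so 1 was added. Symbols of 137 members were found in the RefSeq table of a later assembly, whose coordinates were not used. Fragment sizes were read from 3979 and 3875 low, unnamed loci, where 96.4% and 96.7% of values were whole multiples within 0.03 of a fragment against 6% by chance, assuming that spliced length equals span less 176 bases. Intervals cover counting error only.

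The members, classes and lists were chosen with earlier results of these data known. Named members were, per class, the 3 with the highest mean, all past 2-fold, those nearest the limits and a set of known mechanosensitive, glial and muscle channels. From the list of related genes, those past 2-fold and the 5 with the highest mean were named. Some members and related genes are counted but not reported here. Other members and genes named were chosen after their values were seen. Alternatives were the pseudocount, filter, scaling, fold limit and repeated rows. The calculations used Python 3.11.15, numpy 2.4.6 and pandas 2.3.3 and were tested on simulated data.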

Additional observations from a re-analysis of the deposited data

Results flagged for a closer look

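Signal was also present in rows that join a member's name, or the name of a related channel, to that of another gene and that entered no comparison. The row joining CACNA2D4 and LRTM2 had 1.60 FPKM in the normal library and 1.75 FPKM in the affected one. The row joining CYTH2 and KCNJ14, an inward rectifier, had 39.9 and 65.8 FPKM. With 1 library per group these differences were not tested, and how much of each row belongs to the channel gene was not tested.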

How the results depend on the processing

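With 0.1 added in place of 1 FPKM, 16 members were called higher and 18 lower, in place of 9 and 11. Among members with a mean of at least 5 FPKM, 1 was called lower (KCNMB1, against 6.46% of loci) and 8 higher (7.62% of loci). Their median log2 ratio was 0.19 (0.02 over loci), and that mean includes the library in which a gene is high. At a limit of 4-fold, 4 were called higher and 1 lower, against 1.68% and 1.79% of loci. Rescaling both libraries to a sum of 1000000 let 98 members pass, with 10 higher and 15 lower against 8.54% and 10.6% of loci, and moved the median of all loci to −0.05; scaling to a median ratio of 1 gave 9 and 11. Dropping the filter gave 9 and 11 of 138 members, against 4.24% and 4.55% of loci. This outcome was fixed in advance, because a gene below 1 FPKM in both libraries cannot reach 2-fold once 1 is added. Summing repeated rows left 9 and 11. Among alternatives chosen after seeing the data, leaving out TRPC4AP and KCNRG gave 9 and 11 of 82 members. Leaving out members whose locus overlaps another row gave 6 and 10 of 61. The share over all loci chosen in that way is not given here, so these last counts have no background to be read against. Under the other pseudocount, both rescalings and the summed rows, of 200 recomputed values for 50 named members, 151 moved by less than 0.1 on the log2 scale and 49 by more, and no called member changed direction or lost its call under these 4. KCNK7, which was not called, had a log2 ratio of 0.04, and of −0.00011 after rescaling to that sum. No paired analysis was possible because only 1 cat per condition was sequenced, and neither library could be left out. Members below 1 FPKM rest on fewer than 71.2 fragments per kilobase in the normal library.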

Other observations

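Other rows that join a channel gene's name to a second name had 54.6 and 47.6 FPKM in the normal and affected library for TRPM3, 7.99 and 4.51 FPKM for KCNE3, 3.31 and 2.04 FPKM for SCN2A, 0.913 and 0.643 FPKM for KCNK4 and 0.559 and 0.539 FPKM for KCNH1. Among members below 1 FPKM in both libraries, 7 were listed at 0 in the affected library alone (KCNS1, KCNA10, TRPA1, KCNU1, KCNJ1, SCN10A and KCNK16) and none in the normal library alone. KCNK17, KCNK18 and CACNG1 were listed at 0 in both. KCNH5 and KCNS3, which passed the minimum but were not called, were nonetheless far apart before 1 FPKM was added: KCNH5 had 0.615 and 2.05 FPKM, and KCNS3 1.26 and 0.197 FPKM.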
